A study of Mus musculus with 24 samples.

Results

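SB202190, an inhibitor of the p38 kinases, was compared with the vehicle DMSO in mouse macrophages that had received no LPS. The comparison used 6 of the 24 arrays of the series, chosen by their titles alone. SB202190-treated cells were given 10 µM SB202190 for 2 h and are represented by 3 arrays at 0 h. The control is represented by 3 arrays at 0 h, which the labels title WT and the study's own text describes as DMSO-treated. All cells were bone marrow-derived macrophages (BMDMs) from wild-type C57BL/6 mice aged 8 to 10 weeks, grown for 7 days in medium with 20% conditioned medium of L929 cells, although one label field names the macrophage line RAW264.7. A further 6 arrays held the same treatments after 4 h of LPS, and all 12 arrays of this experiment entered the fit. By their labels, the arrays of a replicate number shared a chip that held both treatments. No source says whether a replicate is a mouse or culture of its own. The p-values therefore reflect the spread among these arrays alone. Part of that spread could be technical, and among the SB202190 arrays all of it could be.

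p38α, encoded by *Mapk14*, is a MAP kinase that upstream kinases activate on stress and on sensing of microbes. It acts through the kinases MK2 and MSK. MK2 phosphorylates tristetraprolin (*Zfp36*), which otherwise marks mRNAs with AU-rich elements for decay, and MSK phosphorylates CREB and histone H3 at immediate-early genes. *Zfp36*, like *Fos*, is an immediate-early gene that serum response factor can switch on. SB202190 occupies the ATP pocket of p38α and p38β and is known to bind other kinases as well.

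The array labelled DMSO replicate 2, called so below by its label only, went against that label. Over all 25697 probes its log2 signals correlated at 0.989 with DMSO replicate 2 after 4 h of LPS, against 0.942 and 0.948 with the other controls at 0 h. These correlations describe single arrays over probes. *Tnfaip3*, the gene of A20, which restrains NF-κB, had signals of 652, 652 and 675 on SB202190 replicates 1 to 3, against 411, 8284 and 631 on DMSO replicates 1 to 3. *Il1b*, the cytokine IL-1β, had 625, 719 and 653 on the SB202190 arrays, against 123, 20561 and 3997 on the DMSO arrays. Signals here are quantile-normalized intensities on a linear scale, and about 122 was the background level. *Xist*, the RNA of the inactive X chromosome of female cells, had 1458, 1074 and 1068 with SB202190, against 112, 570.2 and 897 with DMSO. *Eif2s3y*, on the Y chromosome, had 552, 626 and 762 with SB202190, against 1391, 89.1 and 696 with DMSO. Thus DMSO replicate 1 was at background for *Xist*, DMSO replicate 2 was at background for *Eif2s3y*, and the other 4 arrays gave both. The SB202190 arrays and DMSO replicate 3 also formed one set by the number of distinct normalized values, 8854 to 9366, against 24188 and 24206 in DMSO replicates 1 and 2. For DMSO replicates 1 and 2, treatment cannot be told apart from set, nor from the sex or source of the cells that *Xist* and *Eif2s3y* mark. The label of SB202190 replicate 2 was in conflict as well, its normalized column having the rank order of the intensity column labelled DMSO replicate 3 at 4 h. Signals below are therefore given by array. For many genes the comparison without DMSO replicate 2 is given too, and for some that with DMSO replicate 3. DMSO replicate 3 was the only control in the set of the SB202190 arrays.

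**Figure D1:**
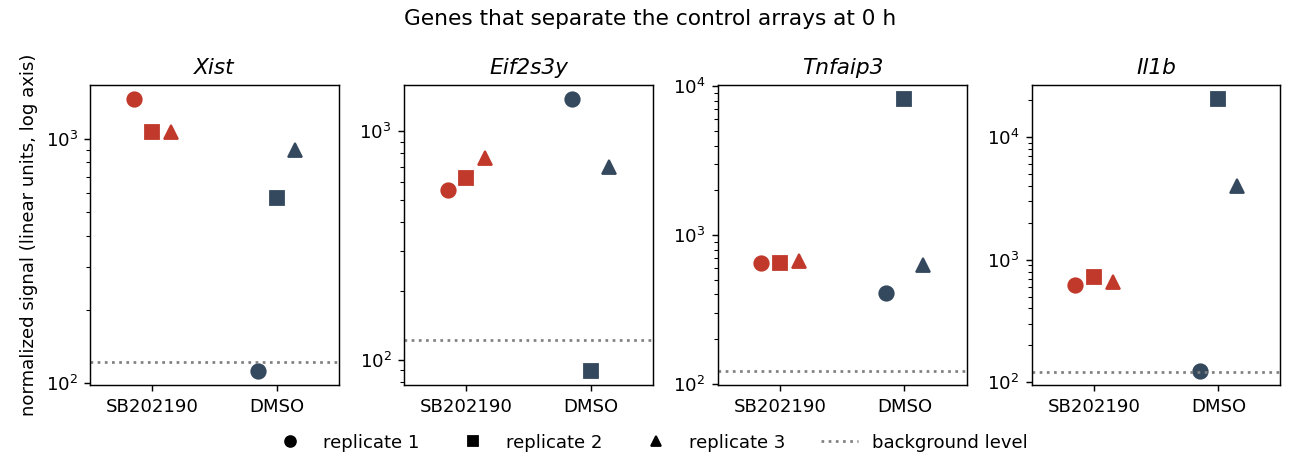
Normalized signal (linear units, log axis) of *Xist*, *Eif2s3y*, *Tnfaip3* and *Il1b* on the 3 SB202190 and 3 DMSO arrays at 0 h, 1 point per array, with the background level of 122 as a dotted line. The SB202190 arrays lie close together, whereas DMSO replicates 1, 2 and 3 differ from each other.

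No gene passed the test of SB202190 against the 3 controls. Of 9123 genes tested, 0 (0%) reached an adjusted p under 0.05 in limma, the smallest adjusted p being 0.127. At an unadjusted p under 0.05 there were 897 genes (9.83%), 533 higher with SB202190 (5.84%) and 364 lower (3.99%). The methods' t-test gave 489 genes at the same unadjusted limit and 0 after Benjamini-Hochberg adjustment. Leaving out single arrays moved the number that passed in limma to 165 genes without DMSO replicate 3, to 5 without DMSO replicate 2 and to 5 without DMSO replicate 2 of the 4 h arrays, and it was 0 without any other array. The 3 SB202190 arrays lay above all controls for 741 genes (8.12%) and below all controls for 697 (7.64%). The median SD of a gene was 0.11 over the SB202190 arrays and 0.309 over the DMSO arrays on the log2 scale. With 3 arrays against 3, an exact permutation test of a single gene cannot go below p = 0.1.

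How many genes differed depended on which control was read. Against DMSO replicate 1 the SB202190 mean was at least 2-fold higher for 300 genes and at least 2-fold lower for 108, together 4.47% of the genes tested. Against DMSO replicate 2 the numbers were 804 and 882, or 18.5%. Against DMSO replicate 3 they were 21 and 27, or 0.526%. Over all probes the 3 SB202190 arrays correlated with each other at 0.995 to 0.997 and with DMSO replicate 3 at 0.993 to 0.994. With DMSO replicate 1 they correlated at 0.980 to 0.982, and with DMSO replicate 2 at 0.943 to 0.945.

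**Figure D2:**
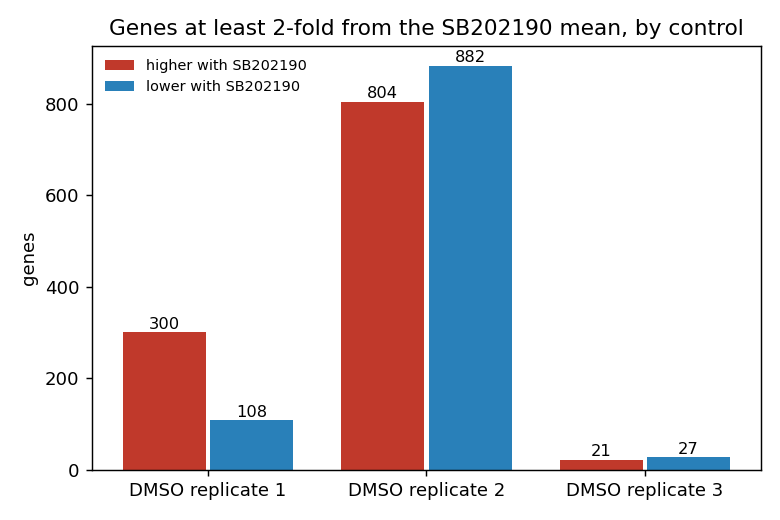
Number of genes whose mean signal on the SB202190 arrays was at least 2-fold higher or lower than on each single DMSO array at 0 h. DMSO replicate 2 gave 804 and 882 genes, DMSO replicate 1 gave 300 and 108, and DMSO replicate 3 gave 21 and 27.

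Of the 9123 genes, 9 (0.0987%) differed from each of the 3 controls by at least 2-fold in the same direction. The 5 that lay lower with SB202190 (0.0548%) were *Zfp36*, *Fos*, *Gpr85*, *Rnd3* and *Zbtb7a*, and the 4 that lay higher (0.0438%) were *Bhlhe40*, *Gadd45a*, *Ciart* and *Osgin1*. These 9 were picked on this contrast, so their number is a description and their adjusted p-values are those of the whole table. None of the 9 passed when the deposited intensities were read with their own, conflicting labels. In that reading the column labelled SB202190 replicate 3 at 0 h had the rank order of the normalized DMSO replicate 3 after 4 h of LPS. Its groups thus mix treatment and time as the normalized columns label them, and it cannot check the 9 differences. The log2 differences there were close to 0 for *Zfp36* (-0.13 ± 0.94, SE), *Bhlhe40* (0.036 ± 0.88) and *Ciart* (0.093 ± 0.36), and were -1.44 ± 0.75 for *Fos*, -0.44 ± 0.35 for *Zbtb7a* and 1.503 ± 0.76 for *Gadd45a*. *Gpr85*, *Rnd3* and *Osgin1* had the opposite sign there, at 1.02, 1.31 and -0.84. Leaving out DMSO replicate 3 brought *Zfp36*, *Gpr85*, *Bhlhe40*, *Ciart* and *Osgin1* past the threshold, and leaving out DMSO replicate 2 of the 4 h arrays did so for *Fos*, *Bhlhe40*, *Ciart* and *Gadd45a*.

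*Zfp36* lay lower with SB202190. Its signals were 1985, 2369 and 2517 with SB202190, against 8170.1, 21581 and 8183 with DMSO, so that the highest SB202190 array was far below the lowest control. The log2 difference was -2.31 ± 0.32 (SE, n = 3 each; limma adjusted p = 0.127). Without DMSO replicate 2 it was -1.84 ± 0.16 (adjusted p = 0.00262), one of the few genes that passed there, and against DMSO replicate 3 alone the fold was 3.59. The promoter of *Zfp36* is shown because it carries a CArG box, the site of serum response factor. It is the RefSeq window of GRCm38.p6 from 250 bases before to 50 after the start, chr7:28379179-28379478 on the minus strand, with the box in capitals.
Zfp36: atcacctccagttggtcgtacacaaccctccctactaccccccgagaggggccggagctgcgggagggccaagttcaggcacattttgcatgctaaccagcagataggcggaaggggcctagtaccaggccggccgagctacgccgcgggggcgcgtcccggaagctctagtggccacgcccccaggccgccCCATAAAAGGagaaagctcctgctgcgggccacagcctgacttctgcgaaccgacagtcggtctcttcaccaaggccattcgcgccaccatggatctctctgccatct
The box began 58 bases before the start. A CArG box on either strand was found in 1.63% of all 32851 windows, in 1.71% of the 7486 tested genes with a window and in 2 of 16 immediate-early genes with one (12.5%).

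*Fos*, a subunit of the AP-1 transcription factor, had signals of 1904, 1551 and 1704 with SB202190, against 3872, 4066 and 5130.0 with DMSO. The groups did not overlap, and DMSO replicate 2 was no outlier among the controls. Its log2 difference was -1.34 ± 0.38 (SE; limma adjusted p = 0.432), and -1.38 ± 0.43 without DMSO replicate 2 (adjusted p = 0.597).

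*Gpr85*, an orphan G protein-coupled receptor, had 451, 599 and 541 with SB202190, against 1329, 2859.9 and 1307 with DMSO. It differed by -1.70 ± 0.27 on the log2 scale (SE; limma adjusted p = 0.127) and passed without DMSO replicate 2, at -1.32 ± 0.15 (adjusted p = 0.0156). Weaker probes of *Gpr85* differed less, by -0.404 and -1.05 with all controls and by -0.134 and -0.527 against DMSO replicate 3. The place of *Gpr85* among the 9 genes thus holds for its brightest probe only. *Rnd3*, an atypical small GTPase, had 238, 290.4 and 276 with SB202190, against 579.9, 3073 and 624 with DMSO. DMSO replicate 2 was farther from the other controls than these were from the SB202190 arrays, and the log2 difference was -1.96 ± 0.51 (SE; adjusted p = 0.406) with it and -1.17 ± 0.21 (adjusted p = 0.118) without it. *Zbtb7a*, a zinc finger repressor, had 203, 676 and 665 with SB202190, against 2057, 1537 and 1481 with DMSO. Here the stray array was SB202190 replicate 1, and the difference was -1.89 ± 0.38 (SE; adjusted p = 0.250) with all controls.

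Among the 4 genes at least 2-fold higher than each control was *Bhlhe40*, a basic helix-loop-helix repressor that binds E-boxes. Its signals were 3806, 3984 and 4068 with SB202190, against 664, 547 and 973 with DMSO. Each SB202190 array was several times every control, and the log2 difference was 2.48 ± 0.43 (SE; limma adjusted p = 0.166). Without DMSO replicate 2 it was 2.30 ± 0.47 (adjusted p = 0.233). *Gadd45a*, a stress protein that binds and activates a kinase upstream of p38 and JNK, had 3481, 2837 and 3272 with SB202190, against 972, 563 and 803 with DMSO. It differed by 2.07 ± 0.48 (SE; adjusted p = 0.333), and by 1.85 ± 0.53 without DMSO replicate 2 (adjusted p = 0.491). *Osgin1*, an oxidative stress-induced growth inhibitor, had 973, 895 and 899 with SB202190, against 350.1, 144 and 438 with DMSO. The difference was 1.72 ± 0.32 (SE; adjusted p = 0.190) and passed without DMSO replicate 2, at 1.23 ± 0.15 (adjusted p = 0.0231).

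**Figure D3:**
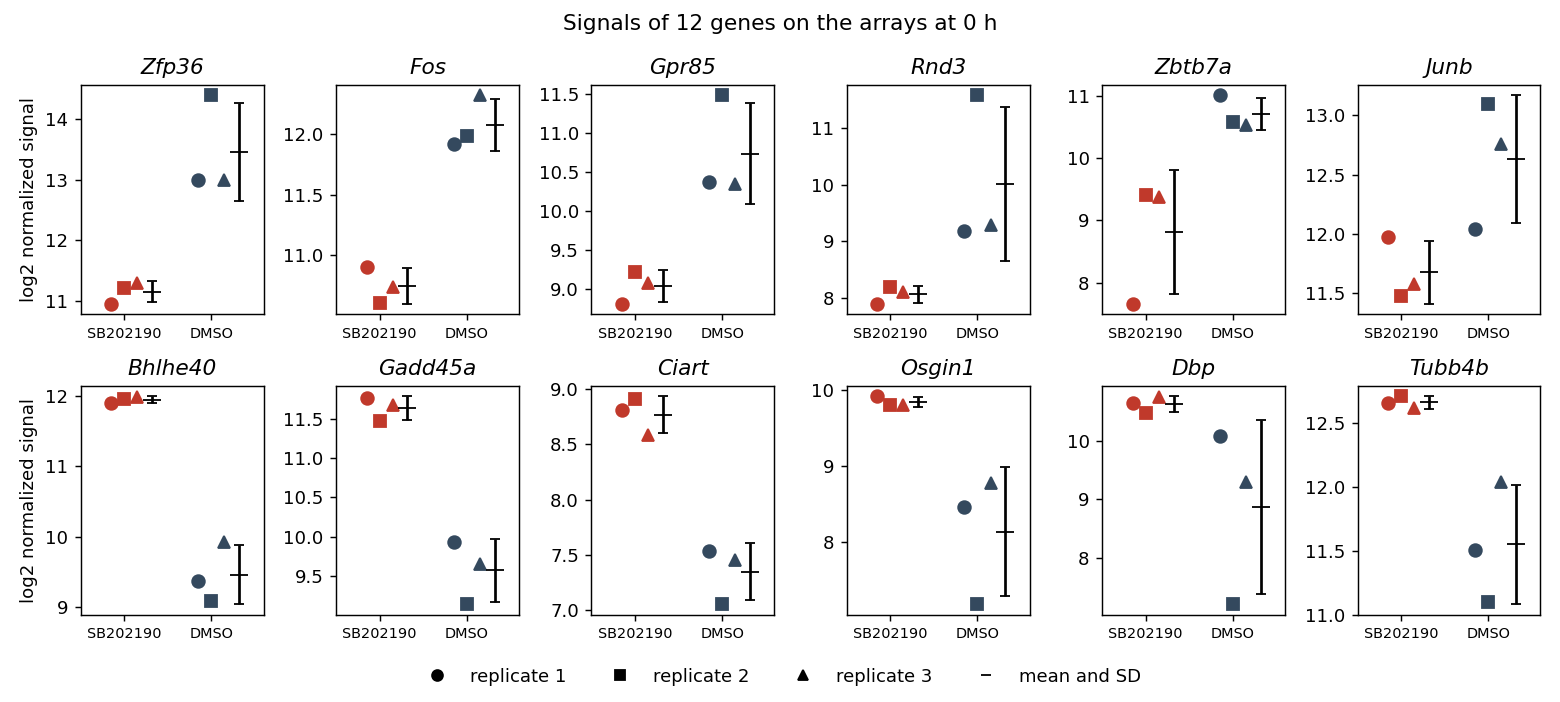
Log2 normalized signal of 12 genes on the 3 SB202190 arrays and the 3 DMSO arrays at 0 h, 1 point per array, with the mean and SD of each group beside the points. The groups do not overlap for any of the 12 genes, and the controls are spread more widely than the SB202190 arrays for each except *Zbtb7a*.

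*Bhlhe40* and *Ciart* belong to the circadian clock list. The clock is a loop in which CLOCK and BMAL1 switch on E-box genes whose products, such as PER, CRY and CIART, shut them off again. Of 16 clock genes tested, 7 were higher and 1 lower at an unadjusted p under 0.05, beside 5.84% and 3.99% of all genes tested, and 5 lay above and 1 below all controls, beside 8.12% and 7.64%. None passed the adjusted threshold against all controls. The median difference of the list was 0.48 with all controls, 0.19 without DMSO replicate 2 and 0.26 against DMSO replicate 3, beside 0.01 over all genes tested with all controls.

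*Ciart*, a repressor of CLOCK and BMAL1, had 449.7, 481 and 383 with SB202190, against 186, 133 and 176 with DMSO, and differed by 1.42 ± 0.23 (SE; limma adjusted p = 0.139). All 3 SB202190 arrays were more than 2-fold above the highest control. Without DMSO replicate 2 the difference of *Ciart* was 1.27 ± 0.25 (adjusted p = 0.1985). Its promoter is shown because it holds 3 copies of the E-box CACGTG, in capitals, in the RefSeq window of GRCm38.p6 at chr3:95882179-95882478 on the minus strand.
Ciart: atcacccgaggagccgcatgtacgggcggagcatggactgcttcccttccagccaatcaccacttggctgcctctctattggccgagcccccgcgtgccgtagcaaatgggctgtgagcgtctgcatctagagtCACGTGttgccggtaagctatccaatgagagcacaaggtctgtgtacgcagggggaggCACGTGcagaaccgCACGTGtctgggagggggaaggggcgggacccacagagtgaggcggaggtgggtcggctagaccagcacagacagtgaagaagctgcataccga
The copies began 116, 58 and 44 bases before the start. CACGTG, which reads the same on both strands, occurred in 7.15% of all windows and in 11.9% of tested genes, and 13 of the 7486 tested genes (0.174%) held 3 or more copies in a window. Among clock genes 3 of 13 with a window (23.1%) held it.

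Further clock genes had smaller differences than *Bhlhe40*. *Dbp*, a transcription factor that activates D-box genes, had 1614, 1429 and 1726 with SB202190, against 1091, 148 and 629 with DMSO. Its log2 difference was 1.76 ± 0.55 (SE; limma adjusted p = 0.442) with all controls and 0.94 ± 0.24 (adjusted p = 0.444) without DMSO replicate 2, so that the lowest control carried much of it. *Nr1d1*, the repressor REV-ERBα, had 295, 279 and 215 with SB202190, against 175, 128 and 181 with DMSO. *Per2*, a core repressor of the clock, had 347, 369 and 279 with SB202190, against 279, 175 and 246 with DMSO, where the closest arrays of the groups were nearly equal. *Tef*, another D-box activator, had 771, 584 and 714 with SB202190, against 616, 205 and 456 with DMSO, and its groups overlapped. *Nfil3*, which represses the D-box genes that *Dbp* and *Tef* activate, lay the other way, at 717, 689 and 628 with SB202190, against 859, 4205 and 1349.8 with DMSO. The *Nfil3* difference was -1.32 ± 0.54 (SE; adjusted p = 0.495), and -0.67 ± 0.42 without DMSO replicate 2 (adjusted p = 0.897).

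Immediate-early genes lay on both sides of their controls, and none passed. Of 19 tested members of the list of immediate-early and p38-dependent genes, 1 was higher and 5 were lower at an unadjusted p under 0.05 (5.84% and 3.99% over all genes), and 3 lay above and 5 below all controls (8.12% and 7.64% over all genes). The median of the list was 0.01, as over all genes. *Zfp36l1*, a relative of tristetraprolin, had 1919.6, 2666 and 2344 with SB202190, against 11661, 2417 and 6483 with DMSO. For this gene DMSO replicate 2 was the control that lay with the SB202190 arrays, and the log2 difference was -1.31 ± 0.48 (SE; limma adjusted p = 0.477) with it and -1.93 ± 0.34 (adjusted p = 0.118) without it. *Junb*, another AP-1 subunit, had 4014, 2844 and 3048 with SB202190, against 4203, 8749 and 6907 with DMSO. It differed by -0.96 ± 0.28 (SE; adjusted p = 0.432), and by -0.72 ± 0.28 without DMSO replicate 2 (adjusted p = 0.754).

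**Figure D4:**
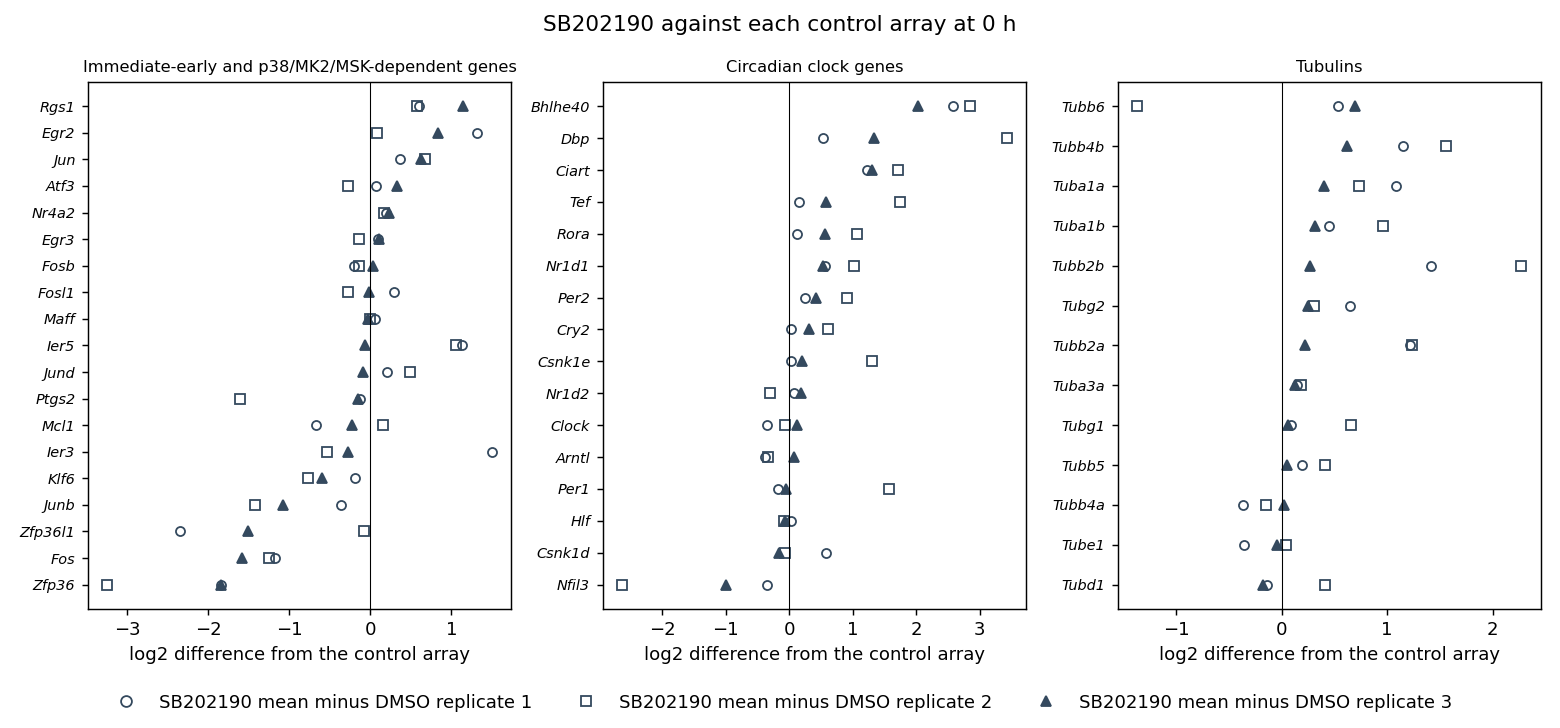
Log2 difference between the mean of the SB202190 arrays and each single DMSO array at 0 h for the tested immediate-early, circadian clock and tubulin genes, 1 row per gene and 1 symbol per control. *Zfp36* and *Fos* lie left of 0 against each control and *Bhlhe40*, *Dbp* and *Ciart* right of 0, while DMSO replicate 2 gives the most distant symbol for many genes.

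*Egr1* and *Egr2*, zinc finger transcription factors of the same immediate-early class, lay higher with SB202190 than on DMSO replicates 1 and 3. *Egr1* had 1449.8, 1698 and 1923 with SB202190, against 283, 2375 and 482 with DMSO. DMSO replicate 2 was above every SB202190 array, and only without it did *Egr1* pass, at 2.18 ± 0.29 (SE; limma adjusted p = 0.0296), against 1.29 ± 0.60 with all controls (adjusted p = 0.502). *Egr2* had 448, 417 and 543 with SB202190, against 187, 438 and 262 with DMSO, with no pass in either comparison. *Gadd45b*, a relative of *Gadd45a*, had the same pattern, with 1759.8, 1421 and 1517 on the SB202190 arrays, against 496, 2623 and 511 on the DMSO arrays. It passed without DMSO replicate 2, at 1.63 ± 0.15 (adjusted p = 0.00353), and had 0.84 ± 0.50 with all controls (adjusted p = 0.559). *Gadd45g* had 19322, 16288 and 16377 with SB202190, against 5108, 14422 and 6607 with DMSO, and lay above every control. Without DMSO replicate 2, 5 genes passed in all (0.0548%), *Osgin1*, *Egr1* and *Gadd45b* as higher (0.0329%) and *Zfp36* and *Gpr85* as lower (0.0219%).

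Among the phosphatases that switch MAP kinases off, *Dusp1*, which acts on p38 and JNK, had 4667, 5941 and 5549 with SB202190, against 5733, 25441 and 11289 with DMSO. The groups overlapped through DMSO replicate 1, and the log2 difference was -1.14 ± 0.52 (SE; limma adjusted p = 0.501) with all controls and -0.59 ± 0.45 (adjusted p = 0.909) without DMSO replicate 2. *Dusp16*, a phosphatase of JNK, had 585, 673 and 648 with SB202190, against 763, 4004 and 1195 with DMSO, and less than 0.5 of its difference was left without DMSO replicate 2. Of 11 phosphatases tested, 1 was higher and 1 lower at an unadjusted p under 0.05 (5.84% and 3.99% over all genes), and their median was 0.11. The *Dusp1* promoter is shown for its cAMP response element TGACGTCA, the site of CREB, and an E-box, both in capitals, in the RefSeq window of GRCm38.p6 at chr17:26508423-26508722 on the minus strand.
Dusp1: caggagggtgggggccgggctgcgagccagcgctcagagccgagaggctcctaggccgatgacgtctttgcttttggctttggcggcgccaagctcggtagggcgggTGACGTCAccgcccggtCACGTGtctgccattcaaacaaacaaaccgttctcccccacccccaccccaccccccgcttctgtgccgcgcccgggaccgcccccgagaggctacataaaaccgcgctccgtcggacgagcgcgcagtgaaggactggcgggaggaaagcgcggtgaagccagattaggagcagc
The element began 143 and the E-box 126 bases before the start. TGACGTCA, which also reads the same on both strands, occurred in 1.79% of all windows, in 3.51% of tested genes and in 2 of 10 phosphatase genes with a window (20.0%).

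Tubulins, the subunits of microtubules, were not lower for any member that separated the groups. Of 13 tested, 6 were higher and 0 lower at an unadjusted p under 0.05, where all genes gave 5.84% and 3.99%, and 8 lay above and 0 below all controls, where all genes gave 8.12% and 7.64%. The median difference was 0.27 with all controls, 0.39 without DMSO replicate 2 and 0.22 against DMSO replicate 3. *Tubb4b* had 6454, 6688 and 6252 with SB202190, against 2912, 2196 and 4194 with DMSO, a log2 difference of 1.11 ± 0.27 (SE; limma adjusted p = 0.333). *Tuba1b* had 46245, 41646 and 40265 with SB202190, against 31198, 21943 and 34114 with DMSO, a difference of 0.58 ± 0.18 (SE; adjusted p = 0.436). *Tuba1a* had 3974, 2791 and 3061 with SB202190, against 1524, 1947 and 2444 with DMSO. All 3 tubulins lay above every control, and DMSO replicate 3 was the nearest control for each.

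The kinase that SB202190 binds showed no separation at the mRNA level. *Mapk14* had 3903, 3806 and 3351 with SB202190, against 3492, 1894 and 3701 with DMSO, a log2 difference of 0.34 ± 0.26 (SE; limma adjusted p = 0.616) and of 0.03 ± 0.21 without DMSO replicate 2. *Mknk2*, a kinase of the translation factor eIF4E that p38 and ERK activate, had 4402, 3999 and 3862 with SB202190, against 2524, 1048 and 2959.8 with DMSO. It lay above every control, at 1.04 ± 0.33 (SE; adjusted p = 0.442). *Cebpb*, a transcription factor that p38 acts on, had 23437, 18397 and 18067 with SB202190, against 12887, 23125 and 20927 with DMSO, and its groups overlapped, at 0.11 ± 0.23 (SE; adjusted p = 0.849). Of 14 p38 kinases, upstream kinases and effectors tested, 3 were higher and 1 lower at an unadjusted p under 0.05 (5.84% and 3.99% over all genes). Of 12 C/EBP and CREB family factors, 0 were.

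Stress and growth arrest genes held further members outside the controls. *Chac1*, an ATF4 target that degrades glutathione, had 1744, 1869 and 1719 with SB202190, against 1254, 306 and 655 with DMSO. Its log2 difference was 1.49 ± 0.42 (SE; limma adjusted p = 0.432), and 0.97 ± 0.31 without DMSO replicate 2 (adjusted p = 0.597). Of 29 ATF4 and amino acid stress genes, 3 were higher and 0 lower at an unadjusted p under 0.05 (5.84% and 3.99% over all genes). *Cdkn1a*, the cell cycle inhibitor p21, had 5379.5, 4919 and 5004 with SB202190, against 9045, 30676 and 8911 with DMSO, at -1.41 ± 0.38 (SE; adjusted p = 0.419). Its 2 nearer controls were alike, and without DMSO replicate 2 the difference was -0.82 ± 0.13 (adjusted p = 0.0850). Of 14 p53 targets and growth arrest genes, 1 was higher and 4 were lower at that limit (5.84% and 3.99% over all genes). *Bcl6*, a zinc finger repressor, had 1410.1, 1818 and 1794 with SB202190, against 8768, 8606 and 2656 with DMSO, with DMSO replicate 3 nearest the SB202190 arrays. *Zfp710*, a zinc finger protein, had evenly spaced groups, at 2299, 2161 and 2029.7 with SB202190, against 4004, 4426 and 3724 with DMSO, and differed by -0.90 ± 0.14 (SE; adjusted p = 0.127). *Diras2*, a Ras family GTPase, had 323, 359 and 380.2 with SB202190, against 121, 161 and 199 with DMSO, and differed by 1.17 ± 0.18 (SE; adjusted p = 0.127). One of its controls was at background.

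Counts in other lists at an unadjusted p under 0.05 stand beside 5.84% higher and 3.99% lower over all genes tested, and no member passed the adjusted threshold. Of 38 lysosome and autophagy genes of the CLEAR network, 9 were higher and 1 lower, with a median of 0.11. Of 14 MHC class II and antigen presentation genes, 4 were higher and 0 lower. Of 16 mitosis genes, 1 was higher and 3 were lower, and of 25 interferon-stimulated genes 1 was higher and 0 lower. Of 22 cytosolic ribosomal proteins 0 were, and of 28 respiratory chain subunits 3 were higher and 0 lower.

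Differences that rested on DMSO replicate 2 were counted by leaving it out. A log2 difference of at least 1 in either direction was found for 222 genes, 121 higher with SB202190 (1.33%) and 101 lower (1.11%). For 107 of the 222 (48.2%, or 1.17% of all genes tested), less than 0.5 of the difference was left without DMSO replicate 2, 40 higher and 67 lower with SB202190. For 63 of these 107 the SB202190 arrays overlapped the other 2 controls. The same rule with DMSO replicate 1 left out found 6 genes, and with any other array 0. The causes of the odd levels on the array labelled DMSO replicate 2 were not tested.

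**Figure D5:**
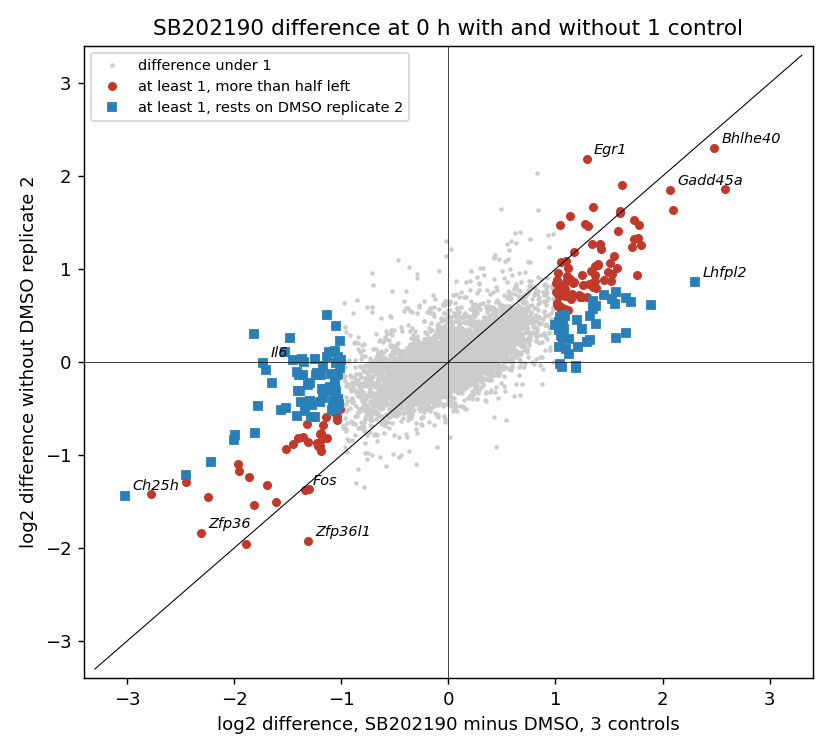
Log2 difference of SB202190 against DMSO at 0 h with all 3 controls (x axis) and without DMSO replicate 2 (y axis), 1 point per gene, with the line of equal values. Blue squares are the 107 genes with a difference of at least 1 that rests on DMSO replicate 2 and red points are the other genes with a difference of at least 1.

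Several inflammatory genes were among the 107. *Il6*, the cytokine IL-6, had 105, 105 and 122 with SB202190, against 89.7, 3981 and 137 with DMSO. All SB202190 arrays were at background, so that the mean was at least 3.01-fold lower with all controls, and DMSO replicates 1 and 3 were at or near background too. *Edn1*, the vessel-constricting peptide endothelin, had 135, 150.0 and 136 with SB202190, against 100.2, 9188 and 129 with DMSO, with a log2 difference of -1.81 with all controls and 0.30 without DMSO replicate 2. *Serpinb2*, an inhibitor of plasminogen activators, had 92.6, 98.3 and 108 with SB202190, against 85.8, 1077 and 139.5 with DMSO, with all SB202190 arrays at background and at least 1.93-fold below the mean of the controls. *Nfkbiz*, a nuclear cofactor of NF-κB, had 373, 471 and 399 with SB202190, against 669.6, 8237 and 816 with DMSO. It stayed below the other controls, and its mean was 4.01-fold lower with all controls (limma adjusted p = 0.477), with a log2 difference of -0.84 ± 0.20 (SE; adjusted p = 0.327) without DMSO replicate 2. *Nfkbid*, a nuclear IκB protein, was not among the 107, and had 622, 624 and 649 with SB202190, against 888, 2912 and 1488 with DMSO. Of 18 NF-κB family members and feedback inhibitors, 0 were higher and 4 lower at an unadjusted p under 0.05 (5.84% and 3.99% over all genes). Their median was -0.26 with all controls and 0.25 without DMSO replicate 2.

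*Ch25h*, the enzyme that makes 25-hydroxycholesterol, had the lowest log2 difference named here, -3.02 ± 1.04 (SE; limma adjusted p = 0.460). Its signals were 699, 534 and 507 with SB202190, against 2680.3, 41913 and 901 with DMSO, and without DMSO replicate 2 the difference was -1.44 ± 0.44 (adjusted p = 0.597). *Cxcl9*, an interferon-induced chemokine, had 1255, 1318 and 1061 with SB202190, against 5143, 27448 and 1257 with DMSO. DMSO replicate 3 lay among the SB202190 arrays for *Cxcl9* and above them for *Ch25h*. Other genes had their low array in DMSO replicate 2. *Lhfpl2*, a tetraspan membrane protein, had 12665, 15434 and 13359 with SB202190, against 7506, 375 and 7700.4 with DMSO. *Cxcr4*, the receptor of CXCL12, had 2950.3, 2641 and 2376 with SB202190, against 1962, 123 and 1514 with DMSO. *Flcn*, folliculin, which regulates mTORC1 at the lysosome, had 7851, 8538 and 8782 with SB202190, against 5651, 600.4 and 5042 with DMSO. The SB202190 arrays lay above every control for *Lhfpl2*, *Cxcr4* and *Flcn*, with log2 differences of 0.86, 0.62 and 0.65 left without DMSO replicate 2. *Ddit3*, the stress factor CHOP, had 6416, 7027 and 6247 with SB202190, against 7297, 362 and 4097 with DMSO, and its groups overlapped.

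For another part of the 222 genes, DMSO replicate 3 lay with the SB202190 arrays, its distance from their mean being less than 0.5 of that of either other control, both of which lay to the same side. This held for 117 genes (1.28% of those tested), 64 higher and 53 lower with SB202190, of which 47 also rested on DMSO replicate 2. *Ccn2*, the matrix protein CTGF, had 134, 161 and 135 with SB202190, against 1004, 6448 and 146 with DMSO. *Mrc1*, the mannose receptor, had 194, 234 and 191 with SB202190, against 1183, 5627 and 212 with DMSO. *H2-K1*, a class I MHC heavy chain, had 5019, 4125 and 4327 with SB202190, against 366, 273 and 4158 with DMSO, although a weaker probe of the gene differed by only 0.34. *Eef1a1*, a translation elongation factor, had 976, 649 and 642 with SB202190, against 96.8, 92.5 and 584 with DMSO. For these 4 genes the SB202190 arrays were far from DMSO replicates 1 and 2 and near DMSO replicate 3. *Ccl12*, a monocyte chemokine, lay below every control, at 2369, 2845 and 2089 with SB202190, against 9463, 34404 and 4616 with DMSO. The remaining 45 of the 222 genes, 29 higher and 16 lower with SB202190, neither rested on DMSO replicate 2 nor had DMSO replicate 3 with SB202190.

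Several cytokines had a different level on each control. *Il1a*, the cytokine IL-1α, had 327, 326 and 289 with SB202190, against 91.8, 3559.8 and 686 with DMSO. *Cxcl1*, a neutrophil-attracting chemokine, had 216, 193 and 174 with SB202190, against 103, 3131 and 425 with DMSO. *Cxcl2*, its close relative, had 237, 266 and 226 with SB202190, against 108, 1269 and 573 with DMSO. The interferon *Ifnb1* had 213, 215 and 207 with SB202190, against 98.3, 1854 and 460.0 with DMSO. Like *Il1b*, all 4 were near background on DMSO replicate 1, highest on DMSO replicate 2 and in between on DMSO replicate 3, where they were above the SB202190 arrays. Of 20 cytokines tested, 0 were higher and 0 lower at an unadjusted p under 0.05 (5.84% and 3.99% over all genes). For 6 of them, lower with SB202190, the difference rested on DMSO replicate 2. The list's median was -0.37 with all controls, 0.13 without DMSO replicate 2 and -0.12 against DMSO replicate 3. Of 18 chemokines, 0 were higher and 1 lower, with medians of -0.41, 0.00 and -0.05.

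Against DMSO replicate 3 alone, 255 genes passed (2.80%), 139 higher (1.52%) and 116 lower (1.27%) with SB202190. The spread in this comparison came from the SB202190 arrays, whose median SD of 0.11 was below the 0.309 of the controls, so that its p-values leave out the controls' own spread and are too small. The differences are therefore given as values against 1 array. Whether these genes also lay outside all 3 controls was partly fixed by their choice against 1 of them, and it is no support for them. *Zfp36* (-1.84), *Fos* (-1.58), *Zfp36l1* (-1.50), *Gpr85* (-1.31), *Rnd3* (-1.22), *Junb* (-1.08) and *Dusp1* (-1.08) were lower than on DMSO replicate 3. *Bhlhe40* (2.02), *Gadd45a* (1.99), *Egr1* (1.80), *Gadd45b* (1.61), *Chac1* (1.44), *Gadd45g* (1.39), *Dbp* (1.33), *Ciart* (1.31) and *Osgin1* (1.07) were higher. *Il1b* had the lowest difference of those named, -2.59, and *Il1a*, *Cxcl1*, *Cxcl2* and *Ifnb1* were lower as well, at -1.13, -1.13, -1.24 and -1.12, although each lay above DMSO replicate 1.

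After 4 h of LPS the same test gave 298 genes (3.27%), 203 higher (2.23%) and 95 lower (1.04%) with SB202190. Here too DMSO replicates 1 and 2 stood apart by distinct values, at 24199 and 24215. DMSO replicate 3 had 8307 and the SB202190 arrays 8771 to 9003. For DMSO replicates 1 and 2, treatment and set cannot be told apart at 4 h either. *Zfp36* had 2661, 2359.8 and 2286 with SB202190 after LPS, against 20712, 21302 and 16288 with DMSO, and fell by 2.99 ± 0.32 on the log2 scale (SE; limma adjusted p = 0.00173). *Fos* had 178, 176 and 192 with SB202190, against 700.1, 2348 and 699 with DMSO, and fell by 2.53 ± 0.38 (adjusted p = 0.0106). *Dusp1* fell by 3.26 ± 0.52 (adjusted p = 0.0122), with 2145, 1909 and 2238 on the SB202190 arrays, against 16081, 42215 and 11973 on the DMSO arrays. Of 13 tubulins 8 rose and 0 fell, *Tubb4b* by 1.94 ± 0.27 (adjusted p = 0.00660) and *Tuba1b* by 1.73 ± 0.18 (adjusted p = 0.00162). *Bhlhe40*, *Ciart* and *Gadd45a*, which lay higher with SB202190 at 0 h, had differences of 0.88, -0.38 and 0.13 at 4 h, none of which passed. The change of the difference between 0 h and 4 h did not pass for any of these 8 genes.

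That change passed for 2 genes (0.0219%), for 59 without DMSO replicate 2 at 0 h and for 6 without DMSO replicate 2 or DMSO replicate 3 at 4 h. *Pik3cg*, the catalytic subunit of PI3Kγ, had 1006, 899 and 888 with SB202190 at 0 h, against 829.9, 819.7 and 989 with DMSO, a difference of 0.08 ± 0.12 (SE; limma adjusted p = 0.774). At 4 h it had 520.0, 510.4 and 526 with SB202190, against 1809.9, 1573 and 1578 with DMSO, and fell by 1.67 ± 0.12 (adjusted p = 0.000287). *Rhou*, a small GTPase, had 181, 180.5 and 171 with SB202190 at 0 h, against 101, 105 and 126 with DMSO. DMSO replicates 1 and 2 were below the background level, and the difference was 0.69 ± 0.12 as measured (adjusted p = 0.178) and 0.53 ± 0.08 with low values raised to background (adjusted p = 0.0835). At 4 h it had 152, 142 and 138 with SB202190, against 254, 294 and 298 with DMSO, and fell by 0.97 ± 0.12 (adjusted p = 0.00570). The 4 h difference minus the 0 h difference was -1.76 ± 0.17 for *Pik3cg* (adjusted p = 0.00577) and -1.66 ± 0.17 for *Rhou* (adjusted p = 0.00631), or -1.50 ± 0.11 for *Rhou* with low values raised to background (adjusted p = 0.00114). Neither passed with the deposited intensities under their own labels or with the SB202190 arrays of a time averaged to 1 sample.

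The arrays carried macrophage RNA. Of 23 macrophage markers on the array, 19 were over background on all 6 arrays, and their summed signal was 196000 to 203000 with SB202190, against 193000 to 222000 with DMSO. Markers of T and NK cells (0 of 11), B cells (0 of 7), erythroid cells (0 of 6) and dendritic cells (0 of 9) were not over background on all 6 arrays for any gene. Neutrophil markers were over it for 2 of 11 genes, with sums of 2610 to 2740 with SB202190, against 2070 to 2770 with DMSO, and the defining genes *Mpo*, *Elane* and *Camp* were near or below background. Mast cell markers were over it for 1 of 7, the histidine decarboxylase gene *Hdc*, with sums of 1750 to 1920 with SB202190, against 881, 11700 and 2050 on DMSO replicates 1 to 3. Megakaryocyte markers were over it for 1 of 4. Their sums were 2060 to 3250 with SB202190, against 5760, 8050 and 2120 on DMSO replicates 1 to 3. Fibroblast markers were over it for 1 of 9 and endothelial markers for 1 of 8. Fibroblast sums were 1020 to 1060 with SB202190, against 1090, 2100 and 1060 on DMSO replicates 1 to 3. Endothelial sums were 1370 to 1430 with SB202190, against 1480, 1560 and 1400 on DMSO replicates 1 to 3. Fewer cells of a type and less RNA per cell cannot be told apart in such bulk samples.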

How the data were processed

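RNA of the macrophages was read on Illumina MouseRef-8 v2 arrays. The authors deposited an intensity for each of 25697 probes on each array and a detection p-value with it. The deposited normalized intensity, which the authors quantile-normalized over the 12 arrays of an experiment in Partek, was analysed as log2. The number of unused columns with values of single samples was 0. Probes were named from the platform annotation (23978 with 1 symbol, 1719 with none). Probes entered the test with a detection p under 0.05 in 3 or more of 12 intensity columns (13523 probes), and the brightest probe stood for a gene (9123 genes, 2498 with several probes). The 4 groups of 12 arrays were fitted in limma 3.58.1 (R 4.3.3, data.table version 1.17.8), with 2-sided tests and Benjamini-Hochberg adjustment, a gene passing at an adjusted p under 0.05. The fit was tested on simulated data in which a gene had the same spread in every group. The real DMSO arrays spread more widely than the SB202190 arrays, which that simulation did not cover. Python 3.11.15, pandas 2.3.3 and matplotlib 3.10.9 drew the figures. One background level, 6.93 on the log2 scale or a signal of 122, served every array, and a mean against a group with no array over it is given as at least the fold to that level.

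The labels of the normalized and the intensity columns conflict. Of 12 normalized columns, 8 have an intensity column of the same rank order, 1 under the same label, 6 under the same condition and 2 under another condition. SB202190 replicate 2 at 0 h had the rank order of the intensity column labelled DMSO replicate 3 at 4 h. DMSO replicate 3 at 4 h had that of the column labelled SB202190 replicate 3 at 0 h. SB202190 replicates 1 and 3 at 0 h had no match, with highest rank correlations of 0.934 and 0.9349. Each DMSO column at 0 h matched a DMSO column at 0 h, with replicates 1 and 2 exchanged. The normalized columns were used with their own labels, and every direction depends on these.

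Groups, gene lists and the comparison were chosen with earlier results of these data known. Named genes were taken from those with the smallest p in each direction, the largest differences that rest on DMSO replicate 2, up to 4 members of a gene list, and genes the study names. The text names only some of the genes that this rule gave. Left out were, among others, *Adam9*, *Aph1c*, *Cirbp* and *Skil* of the smallest p, and *Gfi1* and *Zc3h12a* of the study's genes. A gene rests on an array if less than 0.5 of its difference is left without it. *Zfp36l1*, *Nfil3*, *Tef*, *Per2*, *Gadd45b*, *Gadd45g*, *Egr1*, *Egr2*, *Tuba1a*, *H2-K1*, *Eef1a1*, *Cxcl1*, *Cxcl2*, *Il1a*, *Ifnb1*, *Pik3cg*, *Xist*, *Eif2s3y* and the markers fall outside this rule and were chosen after their values were seen. The set of columns as a block, the comparison within 1 set (8 arrays) and the 6 arrays without DMSO replicate 2 were added after seeing the data. Promoter sequences and motif positions came from RefSeq windows of GRCm38.p6.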

Additional observations from a re-analysis of the deposited data

Results flagged for a closer look

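The 4 h difference minus the 0 h difference of SB202190 against DMSO passed limma's test of the change itself for 2 genes, which singled them out. It was -1.76 ± 0.17 on the log2 scale for *Pik3cg* (SE; adjusted p = 0.00577) and -1.66 ± 0.17 for *Rhou* (adjusted p = 0.00631), where 2 of the 3 DMSO arrays at 0 h were below background for *Rhou*. Neither passed with the deposited intensities under their own labels, at -0.84 and -0.80, or with the SB202190 arrays of a time averaged.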

How the results depend on the processing

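Against 3 controls 0 genes passed in limma with the 6 arrays at 0 h alone, a trended prior, no detection filter, a filter of 6 of 12 arrays, all probes, the SB202190 arrays averaged, the set of columns as a block and the deposited intensities, whereas 2 passed with array weights per group (*Zfp36* and *Bhlhe40*) and 2 with values raised to background. The methods' t-test gave 489 genes unadjusted and 0 after adjustment. With a single array left out 0 to 165 passed, 255 within 1 set of columns, and 6 for the 6 arrays at 0 h without DMSO replicate 2. The cause was not tested. The replicate numbers did not pair the SB202190 and DMSO arrays (correlations of deviations 0.0584, 0.0207 and -0.064), although they tied the DMSO arrays of 0 h and 4 h (0.584, 0.525 and 0.58), and with the replicate number as a block 0 genes passed (1160 unadjusted). That block left 2 genes for the change between 0 h and 4 h and altered no call of a named gene at 0 h. The calls of named genes at 4 h were read in the main fit alone.

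For the change between 0 h and 4 h, 2 genes passed, 0 with the intensities, 0 with the SB202190 arrays averaged, 3 with array weights, 2 to 59 with a single array left out, 6 with the set of columns as a block and 1055 within 1 set. Of differences that rested on DMSO replicate 2 there were 107, 157 with a looser share of the difference, 515 at a log2 difference of at least 0.58, and 0 to 6 for another array left out.

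With the deposited intensities under their own labels, the log2 difference of the following named genes at 0 h had the opposite sign. There the column labelled SB202190 replicate 3 at 0 h had the rank order of the normalized DMSO replicate 3 at 4 h, an array after LPS. These signs therefore cannot check those of the normalized values. Higher with SB202190 there were *Junb* 0.78, *Dusp1* 0.36, *Dusp16* 1.84, *Gpr85* 1.02, *Rnd3* 1.31, *Nfkbid* 1.02, *Cdkn1a* 0.96, *Bcl6* 0.10, *Nfil3* 0.86, *Ch25h* 2.72, *Cxcl9* 0.77, *Nfkbiz* 2.44, *Edn1* 3.19, *Il6* 3.90, *Il1b* 2.83, *Tnfaip3* 2.37, *Serpinb2* 2.32, *Mrc1* 0.85, *Ccn2* 0.41, *Cxcl1* 3.15, *Cxcl2* 2.75, *Il1a* 2.63, *Ifnb1* 3.098 and *Ccl12* 0.83. Lower were *Dbp* -1.54, *Nr1d1* -0.22, *Tef* -0.88, *Per2* -0.32, *Gadd45g* -0.38, *Osgin1* -0.84, *Chac1* -0.82, *Diras2* -0.19, *Tubb4b* -0.0026, *Tuba1b* -0.19, *Mknk2* -1.08, *Mapk14* -0.18, *Lhfpl2* -2.41, *Cxcr4* -1.83, *Flcn* -1.23 and *Ddit3* -0.99. Within 1 set of columns *Mapk14* had -0.0087, *Cebpb* -0.078, *Edn1* 0.12, *Tnfaip3* 0.064 and *Pik3cg* -0.090. With the set as a block *Cebpb* had -0.16 and *Cxcl9* 0.27. With a single array left out *Cebpb* ranged from -0.15 to 0.27, *Edn1* from -2.96 to 0.30, *Tnfaip3* from -1.79 to 0.37 and *Il1a* from -2.32 to 0.32. For the 6 arrays at 0 h without DMSO replicate 2, *Edn1* had 0.30, *Tnfaip3* 0.37 and *Il1a* 0.32. The number of arrays limits the precision of all values.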
